A study of Mus musculus with 18 samples.

Results

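Harringtonine holds ribosomes where they begin translation, so sequenced footprints pile up over start codons. In mouse erythroblasts, the precursors of red cells, 938 positions of such reads lay upstream of the most heavily read position of their gene. They came from 6 harringtonine libraries, 3 from cells given tunicamycin (2.5 ug/ml for 1.5 h) and 3 from untreated cells. The members were selected on read sums. A position was kept if it held at least 20 reads summed over the 3 tunicamycin libraries and at least 20 over the 3 untreated ones, and the kept position with the most reads of a gene on a strand was taken as its main position. Members are the other kept positions of that gene on the same chromosome, more than 10 nt upstream. Of 9025 positions in the deposited tables, 6828 were kept in 3858 genes, and the 938 members fell in 633 of those genes. In 9 genes several positions tied for the most reads, and the most upstream of them was taken as main.

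The erythroblasts came from fetal liver of a FVB/n x C57BL/6 cross, with the genotype Trp53 -/- in every group, and grew in StemPro with Epo, SCF and dexamethasone. Tunicamycin stops the attachment of sugar chains to proteins in the endoplasmic reticulum (ER). The harringtonine dose was 2 ug/ml. Total RNA and footprints of ribosomes stopped by cycloheximide (100 ug/ml for 5 min) were measured in the same 2 conditions, which gives 18 samples in 6 groups of 3. Untreated cells carry that genotype too, so each result describes cells labelled Trp53 -/-. Trp53 itself had from 1426 to 6060 RNA reads and from 223 to 296 coding-sequence footprints in every library, and counts per gene cannot check which part of it is deleted. Separate cultures or animals are not named in the labels, so a p-value here reflects the spread among samples that may be technical replicates.

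A ribosome usually scans from the mRNA cap to the AUG of the main reading frame, but it can also start upstream of it, at an AUG or at a codon 1 base away such as CUG, GUG or UUG. A start out of frame with the coding sequence gives a separate upstream open reading frame (uORF), and an in-frame start without a stop gives a longer protein. Stress of the ER activates the kinase PERK, which phosphorylates the initiation factor eIF2. Translation of most mRNAs then falls, while uORFs let some mRNAs, with Atf4 the best known, be translated better. In erythroblasts the haem-regulated kinase HRI acts on the same factor.

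Letters could be read for the positions near an annotated transcript start, from RefSeq start windows (GRCm38.p6, 250 bases before to 50 after the start). The windows hold genomic letters, with introns not removed. The following 10 windows are shown because they span the kinds of start codon found at heavily read members. They are not the 10 most read such windows. Left out were Hypk (AUG, 618 reads), Rpl38 (GUG, 537), C2cd4a (CUG, 291) and Psma4 (CUG, 222), each with more reads than Acat2 (218). The windows of Hypk, Rpl38 and Psma4 hold the intron-start letters described below. Each begins at the deposited position and runs 5′ to 3′ on the gene's strand, and capitals mark the codon that lies 12 or 13 bases after it. The windows with AUG come from Ddx46, a splicing helicase (chr13:55635023-55635048, forward), Polr3c, a subunit of RNA polymerase III (chr3:96727436-96727465, reverse), and Wasf2, a regulator of actin assembly (chr4:133130553-133130582, forward). Those with CUG come from the polyubiquitin gene Ubb (chr11:62551548-62551577, forward), Dbi, which encodes an acyl-CoA binding protein (chr1:120120991-120121020, reverse), the histone gene Hist1h2bn (chr13:21754079-21754108, forward), Clic4, an intracellular chloride channel family member (chr4:135272714-135272743, reverse), and the thiolase gene Acat2 (chr17:12960676-12960705, reverse). Cox6b1, a subunit of cytochrome c oxidase (chr7:30626090-30626119, reverse), gives a UUG, and Rps19, a protein of the small ribosomal subunit (chr7:24884655-24884684, forward), a GUG.
Ddx46: tggccacgctctgATGgcggtcactg
Polr3c: cgcgtccgcctggATGgtgctctacttcta
Wasf2: gggaaatcgcgtaATGgcggactcaggccg
Ubb: tgtttcgacgcgCTGggcggtttgtgcttt
Dbi: tgtgacttgattgCTGctgcttctgagctt
Hist1h2bn: tttcttttctttCTGtatctttaggctttt
Clic4: cggtgctgaggatCTGaggccacgggcagc
Acat2: gacaggacaaggCTGagagctagcagagac
Cox6b1: ttcccgtctgacaTTGgcgtctttgctaag
Rps19: cggaggccgcacgGTGagtgagggctctgg

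The Ddx46 window held 160, 116 and 76 reads in tunicamycin libraries 1 to 3 and 157, 87 and 131 in the untreated ones, 88.0% of the reads at its main position. Ubb had 285, 352 and 334 reads with tunicamycin and 216, 301 and 376 without, 34.6% of its main position. In both genes the treatments overlapped, as judged here and throughout on reads scaled to a library's total over all positions (CPM). Polr3c, with 42, 57 and 32 reads against 51, 40 and 40, reached 43.8% of its main position, and Wasf2, with 40, 44 and 63 against 18, 30 and 41, reached 75.2%.

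The codon pattern rests on 117 members in 99 genes whose windows reach far enough to be read at 12 and 13 bases. Of these, 19 (16.2%, 95% Wilson interval 10.6 to 24.0%) had AUG there, 29 (24.8%, 17.8 to 33.3%) CUG, 13 (11.1%, 6.61 to 18.1%) GUG and 5 (4.27%, 1.84 to 9.62%) UUG. Together 66 (56.4%, 47.4 to 65.0%) had 1 of these 4 codons. Another codon 1 base from AUG stood there in 16 (13.7%), and 35 (29.9%) had none of these. At 1543997 places in the 50 bases after all RefSeq starts, the same search over a pair of adjacent offsets found AUG in 2.48%, CUG in 5.66%, GUG in 3.82%, UUG in 2.76% and any of them in 14.7%. Readable members could also lie before the start, which this background does not cover. Main positions near a start had a different order. Of 429 that could be read, 125 (29.1%, 25.04 to 33.6%) had AUG, 50 (11.7%, 8.95 to 15.04%) CUG and 25 (5.83%, 3.98 to 8.46%) GUG. Only 21 downstream positions could be read, of which 0 had AUG (Wilson interval up to 15.5%) and 5 any of the 4 codons. These intervals cover counting error only, the members of a gene are not independent, and the order was not tested. The offsets of 12 and 13 bases were chosen from these same letters, so the comparison with the background favours the positions.

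The offset itself came from the letters. Among the 109 members with room for every offset from 0 to 17, AUG stood 13 bases after the position in 11 and CUG, GUG or UUG in 28, and at 12 bases in 5 and 15. At 11 bases there were 0 of either kind, and no other offset had more than 3 AUG or 12 near-cognate codons. Main positions had their peak at the same offsets, with AUG at 13 bases in 73 of 384 and at 12 bases in 43.

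**Figure D1:**
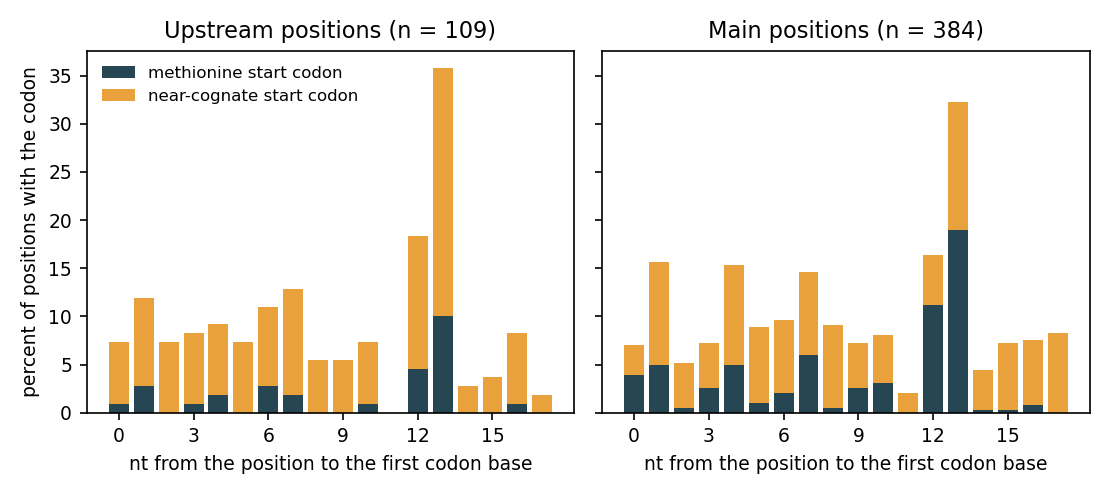
Percent of positions (vertical axis) with a start codon at each distance in nt from the position to the codon's first base (horizontal axis), for 109 upstream and 384 main positions with readable letters. Dark bars are AUG and light bars CUG, GUG or UUG stacked on them. Both panels peak at 12 and 13 nt, and the light part of the peak is larger at upstream positions.

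A further feature of these letters bears on the GUG windows. The letters GTGAG or GTAAG, with which many introns begin, occur in 12 of the 66 windows with a start codon (18.2%), against 5.70% of windows of that length placed after all RefSeq starts. In 5 of 13 GUG windows, Rps19 among them, the codon is itself the opening of GTGAG, so if an intron began there the spliced mRNA would hold other letters. Whether these introns are used in the erythroblasts was not tested. Without any window holding these letters, 16 AUG, 25 CUG, 8 GUG and 5 UUG remained among 99 members, 54.5% in all.

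For 7 pairs in 6 genes, a start codon could be read at both the member and the main position within 1 window, always with AUG at the main position. In Dbi the CUG lay 54 nt upstream of the AUG, in the same frame and with no stop codon between them. In Polr3c the AUG lay 27 nt upstream in frame, with a stop codon before the main AUG. The other 5 pairs were out of frame and open past the main AUG. These were Arih1, a ubiquitin ligase (2 adjacent members, CUG, 233 nt), the copper transporter Atp7b (CUG, 119 nt), the ring finger gene Mkrn1 (CUG, 82 nt) and the ribosome assembly factor Utp15 (GUG, 29 nt).

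Most genes had few members. There was 1 in 441 genes, 2 in 133 and 3 or more in 59, and positions within 10 nt of each other formed 847 groups. Distances to the main position ran from 12 to 171349 nt, with quartiles at 62, 243 and 2906 nt. Because introns are counted in them, a distance along the genome is not one along the mRNA. There were 331 members within 100 nt, 261 over 100 and up to 1000 nt and 346 farther away. Distances of 31 to 60 nt held 146 members (15.6%), against 134 of the 1255 downstream positions (10.7%), while over 5000 nt the shares were 19.3% and 26.1%. Among members 11 to 30 nt away, 38 distances were a multiple of 3, and 28 and 20 left a remainder of 1 and 2. Downstream positions at 11 to 30 nt gave 62, 36 and 30. Of the members, 921 lay inside the span of their RefSeq gene, 14 before it and 3 had no match. Of 768 with a listed transcript start on their strand, 308 were 0 to 99 nt after the nearest one, 397 farther after it and 63 before it, with a median of 105 nt. Exon and UTR annotation was not used here.

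**Figure D2:**
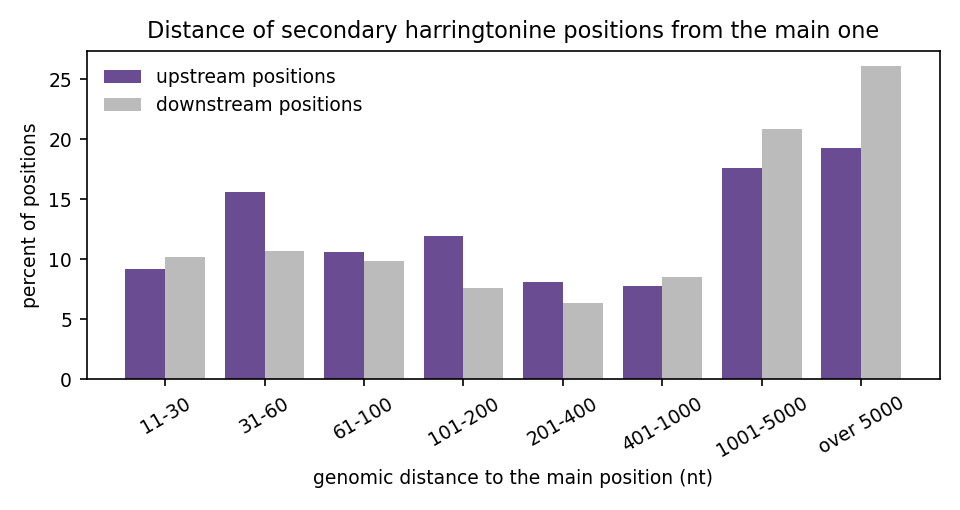
Percent of 938 upstream (purple) and 1255 downstream (grey) positions, vertical axis, by genomic distance in nt to the main position of their gene, horizontal axis. The upstream bar at 31 to 60 nt (15.6%) is the highest within 1000 nt, and the bars over 1000 nt hold a larger share of downstream positions.

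Read numbers at the members were modest. The sum over the 6 libraries ran from 40 to 4216 with a median of 83.5, and 547 members had under 100 reads. As a percent of the main position the members ran from 2.91 to 99.5%, with a median of 43.2%. That ceiling is set by the rule, which takes the highest position as main. Members with AUG had a median of 53.3%, with CUG 37.8%, with GUG 30.5% and with UUG 25.9%. Summed over the 29 CUG members, there were 37.6, 41.4 and 37.3 reads per 100 at their main positions with tunicamycin and 37.0, 38.2 and 47.2 without. The 19 AUG members gave 48.5, 61.1 and 67.8 against 51.6, 68.1 and 58.4, and the ranges of the treatments overlapped for both codons.

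The most heavily read member, 53 nt upstream in the ATP synthase subunit gene Atp5e (position 174464052 of chromosome 2), had 1091, 677 and 497 reads with tunicamycin and 872, 438 and 641 without. That is 96.8% of its main position, so which of the 2 positions is main rests on a small difference. Cnbp, a zinc finger nucleic acid binding protein, followed with 580, 484 and 660 against 566, 641 and 648 reads, 5235 nt upstream. Car2, the carbonic anhydrase of red cells, had 635, 494 and 321 against 514, 400 and 287 reads, 92 nt upstream. In Atp5e and Car2 the ranges of the treatments overlapped, and single libraries differed by more than the treatments did. The ranges overlapped in Cnbp too, where the highest tunicamycin library had 1117 CPM and the lowest untreated one 1080. The next were Dhx15, a splicing helicase (2367 reads, 63 nt), Anp32a (1903 reads, 51 nt), the galectin gene Lgals1 (1870 reads, 22 nt), Ubb (1864 reads, 41 nt), the nucleolin gene Ncl (1604 reads, 40 nt), the purine synthesis gene Paics (1544 reads, 4740 nt) and the complex I subunit gene Ndufc2 (1508 reads, 37 nt). Of these 10, 8 were within 100 nt of the main position. Histone genes and Ubb have near-identical copies, so their reads could have been assigned to the wrong copy.

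**Figure D3:**
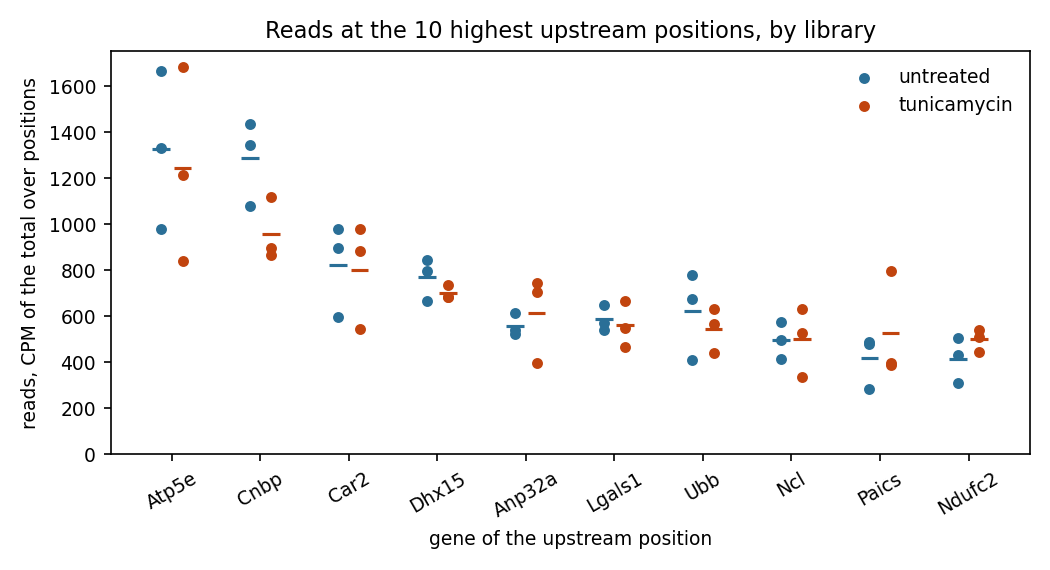
Reads scaled to each library's total over all positions (CPM, vertical axis) at the 10 most heavily read upstream positions, by gene (horizontal axis). Points are 3 untreated (blue) and 3 tunicamycin (red) libraries and short lines their means, with the 2 treatments side by side in each gene.

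Some genes had members along much of their length. Hsp90aa1, a cytosolic chaperone, had 15 members from 24 to 4029 nt upstream, which held 87.5% of the reads at its members and main position. By library this was 81.1, 87.2 and 92.7% with tunicamycin and 89.6, 86.3 and 85.8% without. Its main position had only 200 reads, and in cycloheximide libraries its annotated leader had at most 1 footprint per library beside 2674 to 4327 in the coding sequence. The clathrin heavy chain gene Cltc had 13 members and 86.1% of reads upstream, and Atp5a1, an ATP synthase subunit gene, 8 members and 78.7%. Sptb, which encodes erythroid beta spectrin, had 74.7% and the elongation factor gene Eef1b2 70.8%. Clint1 and Smarca4 had 7 members each. In such genes a main position is no more than the highest of many, and it need not be the start of the coding sequence.

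Values at the floor and the distance limit are given here without a test. Just inside the floor were Nudcd2 (20 tunicamycin and 20 untreated reads), Ddx17 (21 and 20) and Lrrc59 (20 and 21). Just outside were Dnmt1, Itpripl1 and Mis12 (19 and 20 each). In all, 252 members had 20 to 25 reads in the treatment with fewer, and 419 upstream positions fell below the floor. The nearest members to a main position were in Rpl19 (12 nt), Asb3 (18 nt) and Atrnl1 (18 nt), and the nearest kept positions left out were in Ap4b1, Atp6v1b2 and Epc1 (9 nt each).

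Whether reads at upstream positions changed under tunicamycin was tested over all positions. The share of reads at members, out of those at members and the main positions of their genes, was 33.9, 34.5 and 32.5% with tunicamycin and 34.6, 33.7 and 34.6% without. The means were 33.6% ± 1.00 and 34.3% ± 0.546 (SD, n = 3 each), with overlapping ranges (2-sided exact permutation p = 0.5, where 0.1 is the smallest that 3 against 3 can give). The median over genes of that share was 35.2% ± 2.22 with tunicamycin and 36.6% ± 0.482 without (exact permutation p = 0.5).

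By edgeR's quasi-likelihood test, 0 of 5843 positions passed an adjusted p of 0.05, a background of 0%, and so 0 of the 732 members that had enough reads to be tested. The other 206 members, the highest with 105 reads, were not tested. At an unadjusted p under 0.05 there were 17 members (2.32%). So were 105 of 3406 main positions, 38 of 940 downstream and 22 of 679 within 10 nt of a main one. Of positions below the floor, 30 of 86 were. DESeq2 called 1 position in all and 0 members. The median log2 change of tested members was -0.05 (quartiles -0.31 and 0.22), with a median standard error (SE) of 0.43. Replicates spread beyond counting error, with chi-square values of 3.63 to 8.59 per degree of freedom between libraries of the same treatment, so a change of a member had to be large to pass.

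Of members with the smallest p, none passing, Tmem97, a sterol-responsive membrane protein gene, had 24, 26 and 23 reads with tunicamycin and 9, 7 and 10 without (log2 1.18 ± 0.38 SE, edgeR adjusted p = 0.999). Ddx41, a helicase gene, had 39, 36 and 64 against 21, 17 and 23, and a second member of Ndufc2, 82 nt upstream, had 84, 70 and 86 against 36, 35 and 47. Ybx1, an mRNA-binding protein gene, had 9, 6 and 6 against 26, 20 and 12 reads (log2 -1.75 ± 0.45). The CUG position of Dbi had 153, 201 and 162 against 242, 202 and 326 (log2 -0.87 ± 0.27). In Cltc the member 419 nt upstream had 4, 12 and 13 against 15, 57 and 15 reads, and without untreated library 2 its log2 change went from -1.91 to -0.84. In each of these 6 members the groups did not overlap, which held for 56 of the 732 tested members. Such a separation has a 2-sided exact permutation p of 0.1, so exchanged labels would also give it in some members. Missing overlap alone, here or in members named below, therefore does not mark a change. Its share over all tested positions was not counted. With the library number as a block, the adjusted p-values of these 6 members were 0.412, 0.503, 0.511, 0.113, 0.187 and 0.0890. Again 0 members passed.

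The ratio of a member to the main position of its gene, taken within each library, removes changes that both share. It passed for 0 of 728 members, beside 0% of 1662 upstream and downstream positions tested. An unadjusted p under 0.05 was found in 13 members (1.79%), beside 20 of 934 downstream positions. DESeq2 also called 0. The median log2 change of the ratio was 0.03 for members (quartiles -0.34 and 0.37, median SE 0.58) and -0.05 for downstream positions. By distance, its medians were 0.02 within 100 nt, 0.05 from there to 1000 nt and 0.02 farther away. Tmem97 was again the highest by p (log2 of the ratio 1.42 ± 0.56 SE), followed by the nuclear pore gene Ahctf1 (1.99 ± 0.79) and the mitochondrial leucyl-tRNA synthetase gene Lars2 (2.01 ± 0.83). In the last 2 the main position was lower by more than the member was higher, with log2 changes of -1.38 beside 0.49 in Ahctf1 and -2.61 beside 0.14 in Lars2. Untreated library 3 held 558 reads at the Lars2 main position, and without it the ratio's log2 change was 0.80. The lowest were Rps15 (-1.92 ± 0.57), the spliceosomal Snrpa (-1.92 ± 0.61) and Hist1h2bf (-2.27 ± 0.78). There too the main positions differed most, with log2 changes of 1.35, 1.23 and 2.05 beside -0.56, -0.66 and -0.07 at the members. The Hist1h2bf main position had 10, 0 and 11 untreated reads. None of these 6 passed (edgeR adjusted p = 0.998 each). With SEs of this size, a p that misses the threshold does not show that a ratio stayed the same.

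**Figure D4:**
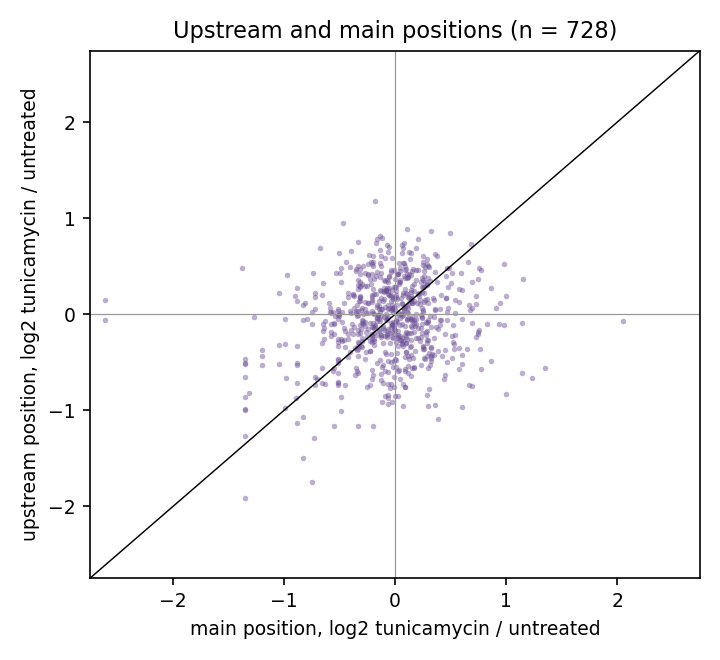
Log2 change of reads, tunicamycin over untreated, at the main position (horizontal axis) and at the upstream position (vertical axis), 1 point for each of 728 members, with the line of equal change. Members of a gene share their main position and so line up vertically. Points gather around 0 on both axes, with median absolute changes of 0.27 upstream and 0.24 at the main position.

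Of 10 genes with a kept position that are known for uORFs acting with eIF2 phosphorylation, 3 had members, beside 633 of 3858 genes in all. They held 5 members, of which 0 passed. Eif5, an initiation factor gene, had 3. At the one 966 nt upstream there were 39, 32 and 24 reads with tunicamycin and 33, 31 and 30 without, and at 1105 nt 36, 32 and 40 against 20, 15 and 26. Scaled to library totals, neither member overlapped between treatments, as in 56 of the 732 tested members, and their directions were opposite. The one at 966 nt had 60.2, 57.3 and 40.6 CPM against 63.0, 69.4 and 62.3 untreated, and the one at 1105 nt 55.5, 57.3 and 67.7 against 38.2, 33.6 and 54.0. The neighbour at 1106 nt, with 29, 29 and 27 reads against 40, 17 and 22, overlapped. Eprs, a tRNA synthetase gene, had 38, 15 and 9 against 16, 19 and 19, and the arginine transporter gene Slc7a1 had 16, 10 and 10 against 17, 14 and 5. Atf4 had no member, because its main position was also its most upstream kept one. That position had 163, 181 and 202 reads with tunicamycin and 108, 178 and 111 without, and a kept position farther downstream had 67, 17 and 11 against 31, 9 and 20. Pnrc2 likewise had its main position first, with 254, 227 and 349 against 234, 296 and 361 reads. Starts upstream of a coding sequence are thus left out of the members where they are the highest of their gene.

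Targets of the stress factor ATF4 had 9 members in 7 of 16 genes with a kept position, and 0 of the 8 tested passed. In Nars, a tRNA synthetase gene, the member 33 nt upstream had 119, 94 and 151 reads with tunicamycin and 68, 67 and 101 without. Slc3a2, an amino acid transporter subunit gene, had 86, 32 and 42 against 39, 31 and 27, Asns, which makes asparagine, 25, 33 and 27 against 19, 20 and 45, and Aars 36, 21 and 18 against 22, 13 and 13. The groups overlapped in all 4. The median log2 change of the ratio to the main position was 0.42 over these 8 members, beside 0.03 over all members tested. ER chaperones had 2 members in 13 genes, with 83, 66 and 63 against 60, 29 and 61 reads in Hspa5 (BiP) and 51, 54 and 38 against 50, 19 and 61 in P4hb.

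In the remaining lists 0 members passed either. Erythroid genes had 23 members in 10 of 32 genes, with a median ratio change of -0.08. These included Car2 and the ferritin gene Fth1 (60, 63 and 53 reads with tunicamycin against 77, 68 and 70 without). Fth1 did not overlap, as in 56 of the 732 tested members. Slc4a1, the band 3 anion exchanger gene, was also among them (74, 74 and 67 against 53, 61 and 60, overlapping once scaled to library totals). Initiation and elongation factors and related genes had 28 members in 12 of 39 genes, including the eIF2 subunit genes Eif2s1 (175, 139 and 142 against 140, 87 and 121) and Eif2s2 (86, 82 and 74 against 68, 59 and 66, overlapping once scaled). Mitochondrial respiration genes had 26 in 12 of 53, with a median of -0.07. Ribosomal protein genes had 21 in 14 of 79, with a median of -0.34, and the most reads in Rps19 (307, 326 and 187 against 249, 229 and 208, overlapping once scaled). The ratio of Rps19 went the other way from that median, with 28.01, 25.7 and 15.6 reads per 100 at its main position against 15.9, 12.1 and 13.7 (log2 0.70 ± 0.38 SE, not passing). These ratios overlapped between treatments, and the main position had a log2 change of -0.80 beside -0.05 at the member. Histone genes had 9 in 8 of 61, including the CUG position of Hist1h2bn (209, 193 and 266 against 104, 121 and 179, overlapping once scaled). Genes known for starts at codons other than AUG or for alternative starts had 4 members in 4 of 13, in Lyl1, Hnrnpa0, Gars and Bag1. Genes of polyamine metabolism and related genes had 3, in Azin1, Amd2 and Mtr, and Azin1, an inhibitor of antizyme, had 31, 32 and 37 against 18, 19 and 23 reads. The lists and the reads at their members come from the same libraries that selected the members.

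Cycloheximide footprints were not used to select the members and give a separate reading of their genes' leaders. Of 548 genes with members that could be tested, 426 rose in the ratio of leader to coding-sequence footprints and 0 fell (77.7% rose), beside 63.8% of all 4693 genes tested. The median log2 change was 0.98 in genes with members and 0.90 over all genes, and the difference between the shares was not tested. Leader footprints made up a median of 10.1, 9.90 and 12.8% of leader plus coding-sequence footprints with tunicamycin and 6.37, 4.68 and 6.37% without in genes with members. Over all genes tested these were 11.7, 11.4 and 14.6% against 7.39, 5.64 and 7.44%. In the 2334 other genes with a kept harringtonine position they were 10.8, 10.6 and 13.9% against 6.68, 5.20 and 6.81%. In each set the treatments did not overlap. The share of genes that rose was 80.9% where the nearest member was within 100 nt, 70.1% from there to 1000 nt and 79.8% farther away.

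The largest rise was in Fasn, the fatty acid synthase gene, where leader footprints were 0.455, 0.459 and 0.621% with tunicamycin and 0.113, 0.0932 and 0.125% without (log2 2.20 ± 0.30 SE, edgeR adjusted p = 0.000335), from only 8 to 35 leader footprints per library. Eif5a, the hypusinated translation factor gene, had 5 members and 11.4, 14.2 and 15.9% leader footprints against 4.49, 2.94 and 3.77% (log2 2.05 ± 0.25). Atp5a1 rose by 2.11 ± 0.26, Iars, a tRNA synthetase gene, by 2.08 ± 0.37, the malate dehydrogenase gene Mdh2 by 2.02 ± 0.24 and the lipoprotein lipase gene Lpl by 1.99 ± 0.33. Hspa5 rose by 1.67 ± 0.20, with 11.6, 10.3 and 14.1% against 4.87, 3.22 and 4.27%. In harringtonine no change of upstream positions was called, and in cycloheximide a rise of leader footprints was called in most of these genes. With a median SE of 0.58 for the ratio of member to main position, the missing calls do not show that the 2 measurements differ. The 2 measurements were not tested against each other, and the leader counts cover all leader footprints rather than the members' own. Their denominators also differ, the main position in the first and the whole coding sequence in the second.

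**Figure D5:**
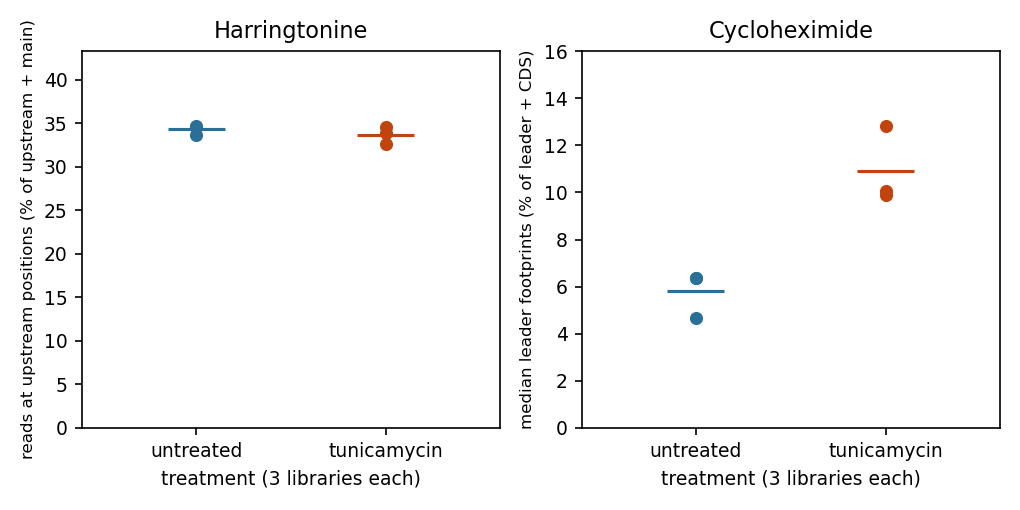
Left, reads at upstream positions as a percent of upstream plus main reads in 6 harringtonine libraries. Right, the median over 548 genes with members of leader footprints as a percent of leader plus coding-sequence (CDS) footprints in 6 cycloheximide libraries. Points are libraries and lines group means of 3. The treatments overlap on the left (32.5 to 34.6%) and are apart on the right (4.68 to 6.37% against 9.90 to 12.8%).

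Translational efficiency, the ratio of coding-sequence footprints to RNA, rose in 9 and fell in 2 of 605 genes with members, beside 1.02% of 9218 genes that rose and 0.38% that fell. Cela1, a serine protease gene, rose by 1.09 ± 0.19 (log2 ± SE, edgeR adjusted p = 0.00988), with 426, 514 and 606 coding-sequence footprints with tunicamycin and 374, 276 and 446 without. It passed under all 15 alternatives run, and the other 6 genes named next lost the call under 8 to 10 of them. Hist1h2bn rose by 1.98 ± 0.43 on 4 to 31 RNA reads per library. The histone gene Hist1h1b rose by 1.24 ± 0.29, also on few RNA reads (5 to 68 per library), and the histone gene H2afx by 0.65 ± 0.14. The growth arrest gene Gadd45g rose by 1.00 ± 0.21 and Mospd3, with 6 members, by 0.72 ± 0.16. Ivns1abp fell by 0.44 on the log2 scale. These counts rest on single libraries. Without footprint library 1 of tunicamycin 24 rose and 14 fell, beside 177 and 119 of 9358 genes in all. There were 24 that rose and 6 that fell without untreated footprint library 3, beside 161 and 87 of 9202. Leaving out any other of the 12 libraries left at most 5 rising.

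RNA rose in 3 and fell in 0 of 623 genes with members, beside 0.15% of 10643 genes that rose. Herpud1, a component of ER-associated degradation, had 81.7, 101.2 and 100.96 CPM with tunicamycin and 35.3, 35.9 and 41.5 without (log2 1.36 ± 0.09 SE, edgeR adjusted p = 5.94e-05). Hspa5 had 779, 912 and 933 against 471, 512 and 556 (0.78 ± 0.08). Herpud1 and Hspa5 had 1 member each, at which reads made up 33.5 and 48.3% of member plus main reads. With the replicate number as a block 42 rose and 10 fell, beside 283 and 127 of 10643 genes in all. Herpud1 and Hspa5 passed under all 9 alternatives run. In bulk samples fewer cells of a type and less RNA per cell cannot be told apart.

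Reads at all deposited positions came to 446561 to 648169 per harringtonine library, of which 21074 to 30961 were at members. RNA libraries had 12883350 to 48992797 reads and cycloheximide libraries 5028087 to 7155889 footprints on annotated features. All 12 erythroblast markers exceeded 5 CPM of RNA. Of macrophage, neutrophil, hepatocyte and stromal markers 0 of 4 did in each list, with sums of at most 2.18 CPM in any library. Of 4 megakaryocyte markers Gp5 did (sums 113 to 119 untreated and 94.4 to 104 with tunicamycin), and of 4 mast cell markers Ms4a2 (105 to 169 and 107 to 172). The part of such cells in any result was not tested.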

How the data were processed

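The members and gene lists were chosen with earlier results of these data known. The authors deposited raw read counts at single harringtonine positions, by strand, and raw counts of cycloheximide footprints per leader and coding sequence and of RNA reads per gene. Per the submitters' processing notes, the tools included STAR, HTSeq and edgeR and the builds mm10 and GRCm38. Their versions, roles and settings, and the way positions were called, were not given in the sources used here. Each position had at least 20 reads in 1 treatment sum, so low positions were not seen. The deposited harringtonine columns name a treatment and a number.

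These counts went into edgeR's quasi-likelihood test (version 4.0.16, R 4.3.3, with TMM factors, filterByExpr and Benjamini-Hochberg over all features, adjusted p under 0.05), after a check on simulated data. In the position, RNA and efficiency tests TMM sets the typical feature near 0, so a change common to all is not seen. The leader ratio used 1 factor per library and keeps such a change. Ratios (member to main position, leader to coding sequence, footprints to RNA) were tested as an interaction with treatment. Alternatives were DESeq2 1.42.0, no filter, library-total scaling, a replicate block and leaving out 1 library. Same-numbered libraries deviated together in harringtonine (r = 0.49, 0.17 and 0.11) and RNA (0.42, 0.31 and 0.19). All were over 0.1. The main tests had no replicate term, and only the replicate block took these numbers as pairs. However, in harringtonine tunicamycin library 3 went further with untreated library 2 (r = 0.39) than with untreated library 3. In RNA the same cross pair gave 0.19, as the same-numbered pair did. Pairing of numbers 2 and 3, and block results that rest on it, are therefore uncertain. Start windows came from RefSeq tables (GRCm38.p6), which matched 935 of 938 members by symbol, and 179 members lay in one. Named were the 10 most read members, up to 3 with the smallest p in each direction, the 5 genes with most members and the 5 with the largest upstream share, all members of uORF genes, up to 4 members of each other list, up to 6 genes passing in each direction in another assay, and the members nearest to each limit. Dbi, Polr3c and the other genes with printed windows or frames were chosen after their values were seen. For 2 genes named by this rule, values are not reported here.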

Additional observations from a re-analysis of the deposited data

How the results depend on the processing

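A floor of 50 reads in each treatment left 315 members, all among the 938. More than 30 nt from the main position gave 852, and a main position chosen on untreated reads gave 956, of which 878 were shared. No alternative called a member in the harringtonine tests. Leader rises ranged from 305 to 461 genes with members over all alternatives, beside 1898 to 3288 of all genes tested. The highest counts came with the replicate block, and falls among genes with members stayed at 0. The start codon share was 54.5% without intron-start letters and 59.0% with 1 position per group, both added after seeing the data. Counts of translational efficiency were 28 up and 11 down with DESeq2, beside 216 and 141 of 9218 genes in all. They were 53 and 41 with the replicate block, beside 440 and 390 of 9218. Leaving out 1 library gave 1 to 24 up and 0 to 14 down. Same-numbered cycloheximide libraries deviated together less evenly (r = 0.35, 0.09 and 0.28), so that block rests on numbers alone. RNA counts were 19 up and 2 down with DESeq2, beside 90 and 24 of 10643 genes in all. They were 13 and 2 without a filter on low counts, beside 92 and 30 of 14905. With the replicate block they were 42 and 10, beside 283 and 127 of 10643. The causes of these shifts were not tested. Of 732 members tested the median SE of 0.43 limits what could be called, and 206 had too few reads. With the sign of paired differences, the upstream share could not reach a p below 0.25.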
